A study of Homo sapiens with 6 samples.

Results

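The 10 genes described here encode the machinery that removes the poly-A tail and the cap of an mRNA and digests it from its 5′ end: *CNOT1*, *CNOT2*, *CNOT6*, *CNOT6L*, *CNOT7* and *CNOT8* of the CCR4-NOT deadenylase, *DCP1A*, *DCP2* and *DDX6* of the decapping machinery, and the exonuclease *XRN1*. They were taken by symbol from the 21863 gene symbols of the deposited values, each was present on 1 line, and all 10 had an RPKM above 0 in every library. RPKM scales the reads of a gene to its length and to the depth of the library, so levels of different genes can be set side by side. Hep G2, a human liver tumor cell line, was transfected with 5 nM of a dsRNA mimic of *miR-195* or of *miR-497* and collected 24 hours later, or was left non-transfected, for which the sample labels give 0 hours. From each of the 3 conditions 1 library of RNA pulled down with an antibody against human Ago2 (Ago2-IP-seq) and 1 library of total RNA (mRNA-seq) were sequenced. The effects of the mimic, of transfection itself and of time cannot be told apart in this design, and both mimics are compared with the same non-transfected libraries. The methods mention preparation with or without poly-A selection and do not assign it to libraries.

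A miRNA guides Ago2 to an mRNA, and Ago2 binds a GW182 protein that recruits deadenylases. CNOT1 is the scaffold of the CCR4-NOT complex, on which catalytic subunits sit, of the CCR4 type (CNOT6 or CNOT6L) and of the CAF1 type (CNOT7 or CNOT8). After the tail is shortened, the helicase DDX6, which CNOT1 binds, links the complex to decapping by DCP2 with its activator DCP1A, and XRN1 degrades the uncapped RNA. The products of these genes thus carry out the decay that follows miRNA binding, and the transcripts can themselves hold sequences that pair with a miRNA.

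The mature sequences show why the mimics can be read side by side: from the second base on they share the seed, printed in capitals (positions 2 to 8, RefSeq on GRCh38.p14), and 12 of the 21 positions are identical.
hsa-miR-195-5p: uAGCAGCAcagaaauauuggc
hsa-miR-497-5p: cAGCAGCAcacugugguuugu

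The 7 bases that pair with this seed, TGCTGCT on the transcript strand, occurred in at least 1 annotated 3′UTR of *CNOT6L*, *DCP1A* and *CNOT6*, that is in 3 of the 10 members (30%), compared with 25.3% of the 18199 genes for which a 3′UTR is annotated. Sites of each of these genes are printed because they mark the transcripts that a mimic could bind by this rule. Each line gives 30 bases of the transcript strand (GENCODE release 44 on GRCh37, also called hg19) with the 7 bases in capitals, and the coordinates are those of the capitals.
CNOT6L chr4:78640190-78640196, minus strand: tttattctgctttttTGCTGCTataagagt
CNOT6L chr4:78636034-78636040, minus strand: acagacttagtatccTGCTGCTtgtttcaa
DCP1A chr3:53320497-53320503, minus strand: aaagaagctttgttaTGCTGCTattgatct
DCP1A chr3:53319050-53319056, minus strand: accactggtgggtggTGCTGCTcttctttt
CNOT6 chr5:180002382-180002388, plus strand: ggtgtcattgcagtgTGCTGCTtgtcaccc

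These sites lie in the 3′UTR of the canonical transcript, 1389 and 5545 bases after the stop codon in *CNOT6L*, 1095 and 2542 bases after it in *DCP1A* and 1182 bases after it in *CNOT6*. The first of these in *CNOT6L* and the first in *DCP1A* are followed by an A, which makes them 8-base sites (TGCTGCTA), found in a 3′UTR of 5.14% of genes. The members have long 3′UTRs, with a median of 4250 bases against 1281 over all genes. Among genes whose longest 3′UTR is within 20% of that of the member, the 7 bases occur in 60.5% at the length of *CNOT6L*, 47.4% at that of *DCP1A* and 47.5% at that of *CNOT6*. Thus a 7-base site in these 3 genes is a frequent feature of transcripts of this size. The share with an 8-base site at such lengths was not computed, and the 5.14% is not matched for length. At the lengths of the members without the 7 bases the share was 66.7% (*DCP2*), 55.8% (*CNOT7*), 50.7% (*XRN1*), 49% (*DDX6*), 26.9% (*CNOT2*), 23.3% (*CNOT8*) and 20.4% (*CNOT1*). Most of these shares are above 30%, so 3 of 10 is not more than transcripts of similar length hold.

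*DCP2* has the longest 3′UTR of the 10, 8711 bases, without the 7 bases, which 66.7% of genes of similar 3′UTR length have. It has 4 matches to the shorter 6-base sequence GCTGCT, which pairs with positions 2 to 7 and overlaps the 7-base site, and none of the 4 is followed by an A. In its coding sequence the 7 bases occur 1 time, in exon 4 of 11. Of 18101 genes, 35.1% have the 7 bases in the coding sequence, a share not matched for coding length. The match in *DCP2*, which is followed by an A, is printed because *DCP2* had the largest change of the 10 in total RNA.
DCP2 coding sequence chr5:112328455-112328461, plus strand: agctcctcatgattgTGCTGCTagagaggt

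*CNOT1* has 3 matches to the 7 bases in its coding sequence, in exons 15, 27 and 44 of 49. It has no match of 6 or 7 bases in its 3′UTR of 1007 bases. The 3′UTRs of *CNOT2* and *CNOT8* also hold neither sequence, and those of *CNOT7*, *DDX6* and *XRN1* hold 3, 2 and 1 of the 6-base matches. In all, 7 of the 10 genes have the 6 bases in a 3′UTR, compared with 46.0% of genes and with 41.3% to 90.2% (mean 71.3%) of genes at the 3′UTR lengths of the 10, so this share is near that of transcripts of similar length. A match is a description of the sequence and not a measured binding site.

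The libraries held 24734651 to 30968420 mapped reads for total RNA and 10653781 to 16829848 for Ago2-IP, as inferred from the steps between RPKM values. The members rested on 765 to 22908 reads in total RNA and on 115 to 7003 reads in Ago2-IP, and the 95% intervals below come from these reads and cover counting error alone. With 1 library per condition and kind there is no spread between replicates, and no test between conditions was made. All 8 hepatocyte markers examined (*AFP*, *ALB*, *APOA1*, *APOB*, *TTR*, *SERPINA1*, *FGB*, *HNF4A*) were present in total RNA, at 1.52 to 4884 RPKM, whereas the leukocyte, endothelial, fibroblast and squamous markers *PTPRC*, *PECAM1*, *COL1A1* and *KRT5* ranged from 0 to 0.412 RPKM. In bulk RNA, fewer cells that express a gene and less RNA per cell cannot be told apart.

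In total RNA of non-transfected cells the levels spanned 21.8-fold. The scaffold *CNOT1* was the highest at 98.1 RPKM (95% counting interval 96.7 to 99.5), followed by the CAF1-type deadenylase *CNOT7* at 36.5, *DDX6* at 32.4 and *CNOT8* at 32.0 RPKM. *CNOT2*, which links subunits to the scaffold, had 20.5 RPKM, *DCP2* had 15.7, *CNOT6* 15.3 and *DCP1A* 11.1. *XRN1* at 4.75 RPKM (4.48 to 5.03) and *CNOT6L* at 4.51 RPKM (4.24 to 4.80) were the lowest. Of the 9 neighbouring pairs in this order, 3 had overlapping counting intervals, namely *DDX6* and *CNOT8*, *DCP2* and *CNOT6*, and *XRN1* and *CNOT6L*. *CNOT1* was the highest and *CNOT6L* the lowest in all 6 libraries. *CNOT6L* lay below 8169 genes in this library and above the median of all listed genes, 0.958 RPKM.

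**Figure D1:**
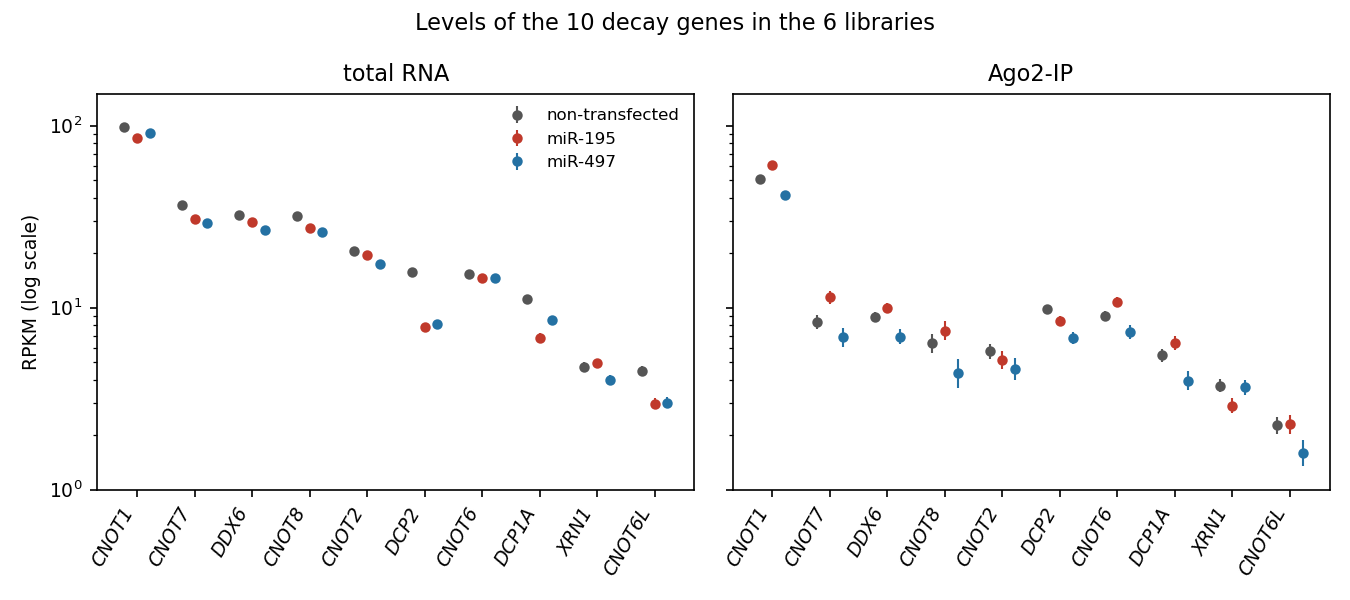
RPKM (log scale) of the 10 genes in total RNA, left, and Ago2-IP, right, ordered by the level in non-transfected total RNA. Points are single libraries (grey non-transfected, red *miR-195*, blue *miR-497*) and bars are 95% counting intervals. In total RNA the grey *DCP2* point at 15.7 RPKM stands clear of the mimic points at 7.84 and 8.12.

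The question asked of total RNA is which of these transcripts had another level after a mimic. Each change is the log2 ratio of RPKM, mimic against non-transfected, minus the median log2 ratio of all genes with an RPKM above 0 in the libraries compared, and a gene was counted when this centred change passed 1.5-fold. That median was 0.017 for *miR-195* and 0.091 for *miR-497* in total RNA. With *miR-195*, 3 of the 10 genes were lower past 1.5-fold, *DCP2*, *DCP1A* and *CNOT6L*, compared with 8.93% of 14740 genes, and 0 were higher, compared with 12.9%. With *miR-497*, 2 were lower, *DCP2* and *CNOT6L*, compared with 7.36% of 14768 genes, and 0 were higher, compared with 14.2%. Among the 8582 genes with at least 1 RPKM in all 6 libraries, as all members had, 6.78% were lower past 1.5-fold with *miR-195* and 5.36% with *miR-497*. Only 3.52% and 3.96% of them were higher. The median change of the members was -0.23 for *miR-195* and -0.39 for *miR-497*. In these comparisons 9 and 10 of the 10 lay below the median of all genes, as did 57.2% and 61.0% of the 8582 genes.

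*DCP2*, the enzyme that removes the cap, had 15.7 RPKM without transfection (15.2 to 16.3), 7.84 RPKM with *miR-195* (7.50 to 8.18) and 8.12 RPKM with *miR-497* (7.79 to 8.46). Both mimic libraries were therefore near the same level and well below the non-transfected one, a difference beyond counting error. The centred change was -1.02 for *miR-195* and -1.05 for *miR-497*, that is 2.03-fold and 2.06-fold lower. These places were far down among all genes, of which 3.15% and 2.18% had a lower change.

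*DCP1A*, the activator of DCP2, had 11.1 RPKM in total RNA without transfection (10.6 to 11.6), 6.81 with *miR-195* (6.44 to 7.21) and 8.52 with *miR-497* (8.11 to 8.95). The intervals of the 3 libraries did not overlap, and the lowest level was that with *miR-195*. Its centred change was -0.72 (-0.83 to -0.61) for *miR-195* and -0.47 (-0.57 to -0.37) for *miR-497*, the latter short of 1.5-fold. Set directly against each other, the *miR-195* library was lower than the *miR-497* library by a centred -0.25 (-0.36 to -0.14). The ratio of *DCP1A* to *DCP2* RPKM was 0.705 without transfection, 0.870 for *miR-195* and 1.05 for *miR-497*, so that the levels of the 2 genes lay closer together after either mimic.

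*CNOT6L*, a CCR4-type deadenylase, had 4.51 RPKM in total RNA without transfection (4.24 to 4.80), 2.96 with *miR-195* (2.76 to 3.18) and 3.01 with *miR-497* (2.81 to 3.22). The mimic libraries overlapped each other and not the non-transfected one. The centred changes were -0.62 (-0.76 to -0.49) after *miR-195* and -0.67 (-0.81 to -0.54) after *miR-497*. Both intervals reach across the 1.5-fold line (0.585 on the log2 scale). With a pseudocount of 1 (-0.48 and -0.49), or with genes of at least 1 RPKM as the reference (-0.57 for each mimic), *CNOT6L* no longer passed 1.5-fold, and without centring it did not pass with *miR-497* (-0.583). Of the 36-base words of its canonical transcript, 9.37% also occur in other genes, most of them in *CNOT6LP1*, and the part of reads from such copies in the value was not tested.

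Its paralog *CNOT6*, which also has a 7-base site, differed less. *CNOT6* had 15.3 RPKM in non-transfected total RNA, 14.5 with *miR-195* and 14.6 with the other mimic, and the counting intervals of the 3 libraries overlapped. The centred changes were -0.09 and -0.17. The ratio of *CNOT6* to *CNOT6L* RPKM was 3.40 without transfection (3.16 to 3.66), 4.90 with *miR-195* (4.52 to 5.31) and 4.83 with *miR-497* (4.47 to 5.23). Of the 2 transcripts for CCR4-type subunits, *CNOT6* was thus more dominant in both mimic libraries. The canonical transcripts of the 10 genes share 0 words of 36 bases, the read length, with the transcripts of any other member, so reads of these paralogs can be told apart by sequence.

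The CAF1-type deadenylases *CNOT7* and *CNOT8* had nearly parallel values. *CNOT7* had 36.5 RPKM in total RNA without transfection, 30.8 for *miR-195* and 29.2 for *miR-497*. *CNOT8* had 32.0, 27.4 and 25.9 RPKM in the same order. Both were lower with either mimic, by centred changes of -0.26 and -0.42 for *CNOT7* and -0.24 and -0.40 for *CNOT8*, all short of 1.5-fold, and their ratio stayed between 1.12 and 1.14. Exons on the opposite strand cover 29.9% of the canonical exonic bases of *CNOT7* and 5.81% of those of *CNOT8*, and the sources used here do not state that counting used strand.

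The scaffold *CNOT1* had 98.1 RPKM in non-transfected total RNA, 84.9 after *miR-195* and 91.0 after *miR-497*. The intervals did not overlap because of its 19736 to 22908 reads, yet the centred changes were small, -0.22 and -0.20. Opposite-strand exons, among them those of *SETD6*, cover 16.1% of its canonical exonic bases. *CNOT2* had 20.5, 19.4 and 17.3 RPKM in total RNA, with centred changes of -0.10 and -0.34. *DDX6* had 32.4, 29.7 and 26.6 RPKM, with centred changes of -0.14 and -0.38. For *CNOT2* and *DDX6* the lowest library was that with *miR-497*, which was lower than the *miR-195* library beyond counting error.

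*XRN1*, the 5′ exonuclease, was the exception in total RNA with *miR-195*. It had 4.75 RPKM without transfection (4.48 to 5.03), 4.95 with *miR-195* (4.70 to 5.21) and 4.02 with *miR-497* (3.80 to 4.25). The *miR-195* library overlapped the non-transfected one, and the *miR-497* library lay below both. Its centred changes were 0.04 (-0.07 to 0.15) after *miR-195* and -0.33 (-0.45 to -0.22) after *miR-497*. The mimics differed directly by 0.37 (0.26 to 0.48).

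**Figure D2:**
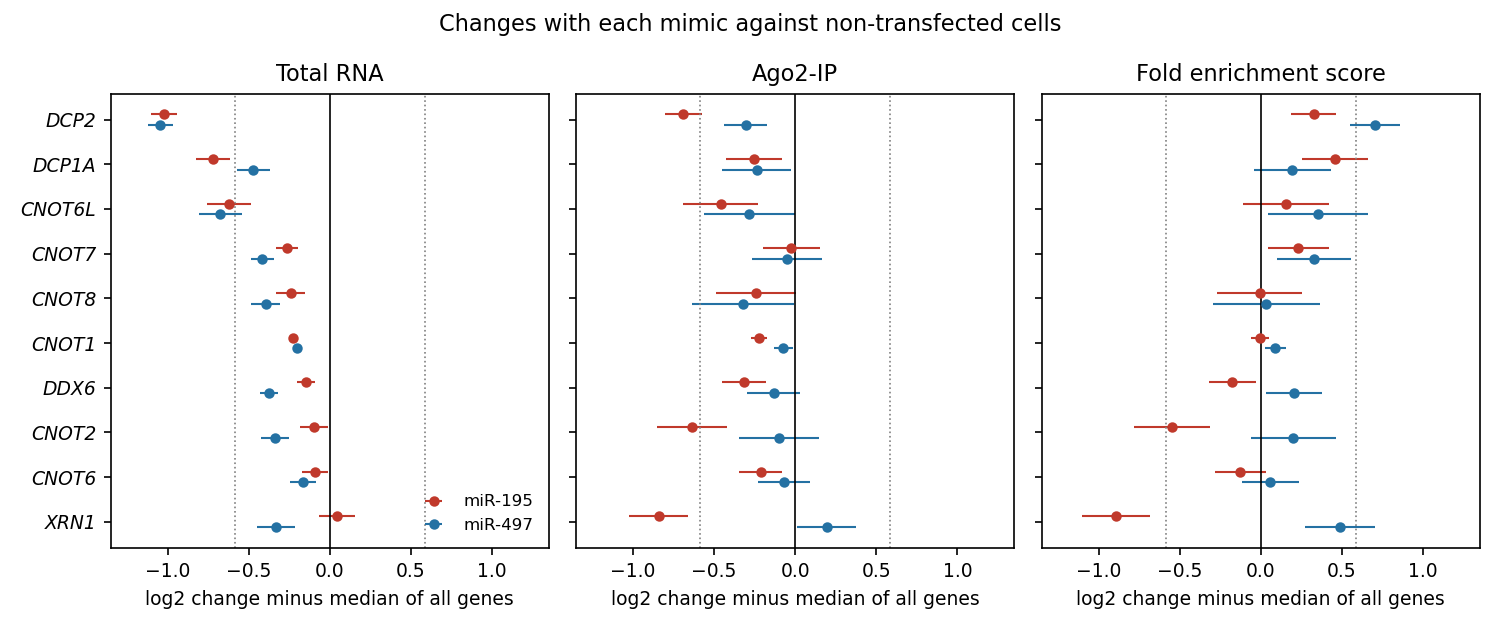
Centred log2 change of each gene against non-transfected cells (log2 ratio minus the median of all genes) in total RNA, Ago2-IP and the fold enrichment score. Red points are *miR-195*, blue points *miR-497*, bars are 95% counting intervals and dotted lines mark 1.5-fold. In total RNA, *DCP2* stands at -1.02 and -1.05, and *XRN1* in the other panels lies on opposite sides of 0 with the mimics, at -0.84 and 0.19 in Ago2-IP, although without centring its Ago2-IP change with *miR-497* was -0.034.

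The Ago2-IP libraries give the level of each transcript relative to the other RNA pulled down with Ago2. Each library is scaled to its own depth, so the ratios below are not the part of a transcript that was recovered. In non-transfected cells the Ago2-IP level divided by the total RNA level (RPKM over RPKM) had a median of 0.326 over all genes and of 0.498 over the 10 members. It was highest for *XRN1* at 0.786, followed by *DCP2* at 0.625, *CNOT6* at 0.585, *CNOT1* at 0.522, *CNOT6L* at 0.502 and *DCP1A* at 0.494. The other 4, *CNOT2* at 0.281, *DDX6* at 0.275, *CNOT7* at 0.229 and *CNOT8* at 0.199, lay below the median of all genes. The 10 genes thus fell on both sides of the median, and the subunits of one complex did not share a ratio. The same 4 were the lowest with each mimic, and with *miR-195* all of them lay below the median of all genes. With *miR-497*, *CNOT7* and *CNOT8* lay below it, whereas *CNOT2* at 0.266 and *DDX6* at 0.261 lay just above. With *miR-195* the median of all genes was 0.469, and *DCP2* at 1.08 and *DCP1A* at 0.936 had the highest ratios among the members. With *miR-497* the median of all genes was 0.260, and *XRN1* at 0.907 and *DCP2* at 0.838 were the highest.

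**Figure D3:**
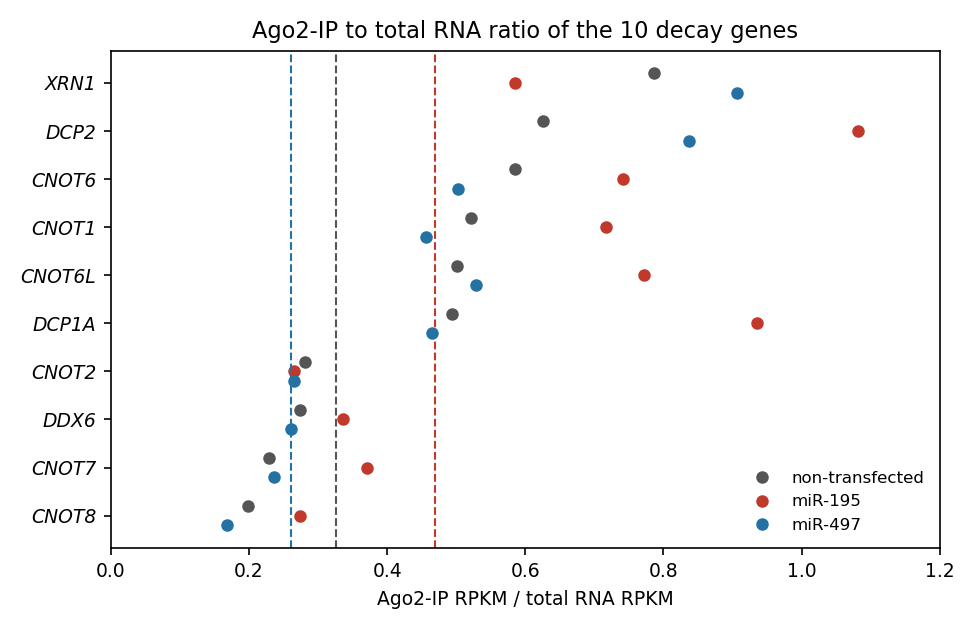
Ago2-IP level divided by total RNA level (RPKM over RPKM) of each gene in non-transfected cells (grey) and with *miR-195* (red) or *miR-497* (blue). Dashed lines are the medians of all genes in each condition, 0.326, 0.469 and 0.260. *CNOT2*, *DDX6*, *CNOT7* and *CNOT8* hold the lowest ratios in each condition, and *XRN1* has its lowest ratio with *miR-195*, at 0.585.

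In Ago2-IP the median log2 ratio of all genes was 0.48 for *miR-195* and -0.23 for *miR-497*, so the scale of these libraries differed before any single gene is considered. Relative to this median, 3 of the 10 genes were lower past 1.5-fold with *miR-195*, *XRN1*, *DCP2* and *CNOT2*, compared with 17.4% of 14291 genes, and 0 were higher, compared with 21.4%. With *miR-497*, 0 were lower and 0 higher, compared with 10.3% and 12.3% of 13866 genes. Of the 8582 genes with at least 1 RPKM in all 6 libraries, 14.8% were lower and 14.4% higher with *miR-195*. With *miR-497* these shares were 5.26% and 3.62%. The median centred change of the members was -0.29 and -0.12. In the deposited values, without centring, 7 of the 10 were higher with *miR-195* than without transfection, and the uncentred median was 0.19, so the direction with *miR-195* depends on the centring. With *miR-497* all 10 had a lower RPKM, and 9 of 10 were below the median change.

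*XRN1* in Ago2-IP had 3.73 RPKM without transfection (3.45 to 4.03), 2.90 with *miR-195* (2.63 to 3.20) and 3.65 with *miR-497* (3.30 to 4.03). The *miR-195* library was the low one, and the remaining 2 overlapped. *XRN1* was lower with *miR-195* also without centring, by a log2 ratio of -0.37, and the centred change was -0.84 (-1.02 to -0.66). Relative to the median, *XRN1* was 2.01-fold lower with *miR-195* than with *miR-497* in Ago2-IP, the largest difference of the 10 between the mimics. In the total RNA of these conditions the order was the opposite, with *XRN1* higher with *miR-195* than with *miR-497*.

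*DCP2* in Ago2-IP had 9.84 RPKM without transfection (9.35 to 10.3), 8.48 with *miR-195* (7.98 to 9.01) and 6.80 with *miR-497* (6.29 to 7.34). It was lower in both mimic libraries, but by less than in total RNA, with centred changes of -0.69 and -0.31. *DCP1A* had 5.48, 6.38 and 3.97 RPKM in Ago2-IP, in the order non-transfected, *miR-195*, *miR-497*. *CNOT6L* had 2.26, 2.29 and 1.59 RPKM on 149 to 335 reads. For both genes the *miR-497* library was the lowest, and the *miR-195* library was not below the non-transfected one in RPKM. Relative to the median of all genes both were lower with either mimic. The centred changes with *miR-195* and *miR-497* were -0.26 and -0.24 for *DCP1A* and -0.46 and -0.28 for *CNOT6L*.

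Of the other CCR4-NOT genes in Ago2-IP, *CNOT1* had 51.2, 60.9 and 41.5 RPKM, *CNOT6* 8.98, 10.8 and 7.31, *CNOT7* 8.35, 11.4 and 6.88, and *CNOT8* 6.37, 7.48 and 4.35, always in the order non-transfected, *miR-195*, *miR-497*. *DDX6* had 8.90, 9.96 and 6.94 RPKM. These 5 share one order, highest with *miR-195* and lowest with *miR-497*, which is also the order of the all-gene medians. *CNOT2* departed from it with 5.75, 5.14 and 4.58 RPKM, and its centred change with *miR-195* was -0.64 (-0.86 to -0.42).

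The fold enrichment score divides the Ago2-IP to total RNA ratio with a mimic by the same ratio without transfection, so a gene that kept its place in Ago2-IP while its total RNA was lower scores high. The median score of all genes was 1.38 for *miR-195* and 0.824 for *miR-497*. The changes below are on the log2 scale relative to these medians. With *miR-195*, 0 of the 10 genes were higher past 1.5-fold and 1 was lower, compared with 18.6% and 16.9% of 13749 genes. The lower one was *XRN1* at -0.89 (-1.10 to -0.68), and the highest was *DCP1A* at 0.46 (0.25 to 0.66). With *miR-497*, 1 was higher and 0 were lower, compared with 12.6% and 20.6% of 13430 genes. The higher one was *DCP2* at 0.70 (0.55 to 0.86), followed by *XRN1* at 0.49 (0.27 to 0.70). Of the 8582 genes with at least 1 RPKM in all 6 libraries, 14.1% were higher and 10.8% lower with *miR-195*. With *miR-497* these shares were 8.55% and 12.4%.

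The members' median score was -0.007 with *miR-195*, at the median of all genes. With *miR-497* it was 0.20 and all 10 lay above the median of all genes, although 6 of the 10 had a score below 1 before centring. Of the 8582 genes with at least 1 RPKM in all 6 libraries, 44.6% lay below that *miR-497* median. With those genes as the reference, *CNOT6* (-0.005) and *CNOT8* (-0.029) lay below the median score. *DCP2* was higher than the median score with both mimics, at 0.33 (0.19 to 0.46) and 0.70. *CNOT6L* had 0.16 and 0.35 and *CNOT7* had 0.23 and 0.33. *CNOT6*, which carries a 7-base site, had -0.13 and 0.06, with intervals that span 0. *CNOT2* had -0.55 for *miR-195* and 0.20 for *miR-497*. *CNOT1* and *CNOT8* lay within 0.09 of the median score, and *DDX6* had -0.18 and 0.20. The 3 genes with a 7-base site in a 3′UTR thus had scores of 0.46, 0.16 and -0.13 with *miR-195*. *DCP2* and *CNOT7*, which lack one in a 3′UTR, lay between the first and the second of these. *DCP2* does hold the 7 bases in its coding sequence. With *miR-497* the 3 genes had 0.19 (-0.04 to 0.43) for *DCP1A*, 0.35 for *CNOT6L* and 0.06 for *CNOT6*. All were below *DCP2* at 0.70 and *XRN1* at 0.49, which lack a 7-base site in a 3′UTR, and the *DCP1A* interval spans 0.

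Of 64 other genes of the decay pathway, 63 could be compared in total RNA. With *miR-195* 0 were higher and 6 lower past 1.5-fold, compared with 12.9% and 8.93% of all genes. With *miR-497* 2 were higher (*TNKS1BP1* and *EXOSC4*) and 2 lower (*EXOSC8* and *EXOSC9*), compared with 14.2% and 7.36% of all genes. Of the 8582 genes with at least 1 RPKM in all 6 libraries, 3.52% were higher and 6.78% lower with *miR-195*. With *miR-497* these shares were 3.96% and 5.36%. None of the counts of other decay genes was far above the share of all genes. Their median centred changes were -0.11 and -0.15, against -0.23 and -0.39 for the 10 genes above. Among 16 other deadenylation genes, *C2orf29*, the CCR4-NOT subunit now called CNOT11, had 58.2, 38.8 and 46.4 RPKM, with centred changes of -0.60 and -0.42. *TOB2*, an adaptor that binds CAF1-type deadenylases, had 7.65, 10.5 and 12.0 RPKM, with centred changes of 0.44 and 0.56, short of 1.5-fold.

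Among the 18 other decapping genes, *LSM6* of the LSM ring that promotes decapping had 25.9, 15.2 and 21.7 RPKM, with centred changes of -0.79 and -0.35. *EIF4E*, which binds the cap, had 9.60, 5.998 and 6.96 RPKM, with -0.70 and -0.55. Of the 18 other exonuclease genes, 2 subunits of the exosome, the complex that degrades RNA from the 3′ end, were lower past 1.5-fold with both mimics. *EXOSC9* had 33.9, 19.7 and 22.3 RPKM, with centred changes of -0.80 and -0.70, and the other was *EXOSC8* at -0.76 and -0.60. Among the 11 poly-A binding and recruiting genes, *PABPC4* had 72.0, 35.97 and 62.1 RPKM, so the low library was that with *miR-195* (-1.02, against -0.30 with *miR-497*). *PUM2* had 45.8, 41.8 and 35.7 RPKM, with -0.15 and -0.45. The 7 bases were found in a 3′UTR of 12 of the 64 (18.8%), compared with 25.3% of all genes with an annotated 3′UTR.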

How the data were processed

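Single reads of 36 bases were aligned by the authors to hg19 (ELANDv2), summarized in CASAVA 1.7 (per the submitters' processing notes) and deposited as 1 RPKM per gene symbol and library, a value already normalized for gene length and mapped reads. The annotation they used is not given in the sources used here. All 6 value columns were matched to libraries (0 unmatched), and the lines of 28 repeated symbols were averaged. The 10 genes and the lists of other decay genes were chosen with earlier results of these data known.

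Log2 ratios used no pseudocount. Genes with an RPKM above 0 in every library compared were kept, the median ratio was subtracted, and 1.5-fold was the threshold. No p-values were calculated, with 1 library per condition. Whole reads were inferred from the shortest gene length that gave whole numbers in all 6 libraries. A value within 0.01 of a read (plus a small share of the reads) counted as whole. Such a length was found for all 10 genes. Multiples of it would also give whole numbers, so the reads and intervals rest on taking the shortest. Intervals of 95% on the log scale assume independent reads and cover counting error alone, without culture, library or PCR variation. Scripts were tested on simulated data. Target sequences were read from GRCh37 with GENCODE release 44, with 16383 symbols matched directly and 1816 by an older symbol, and 1 site of *CNOT6L* is not reported here. Overlaps and shared 36-base words were taken from the canonical transcripts. Besides the 10 genes, those named were, for each list and mimic, the gene with the largest change in total RNA among genes with at least 1 RPKM in all 6 libraries, and the 5 genes nearest to the members' mean pattern. *EXOSC8*, *EXOSC4* and *TNKS1BP1* were named after their values were seen. Alternatives were no centring, pseudocounts of 0.1 and 1, a minimum of 1 RPKM, folds of 5/4 and 2, and other site definitions. Python 3.11.15, numpy 2.4.6, pandas 2.3.3, pysam 0.24.0, samtools 1.23.1 and matplotlib 3.10.9 were used.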

Additional observations from a re-analysis of the deposited data

How the results depend on the processing

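No paired analysis was possible because each condition had 1 library, and for the same reason no replicate could be left out. Whether *miR-195* and *miR-497* values would recur in other cultures cannot be judged. Centring mattered most. Without it the median change of the 10 genes was -0.29 in total RNA with *miR-497*, 0.19 in Ago2-IP with *miR-195* (opposite in sign), -0.34 in Ago2-IP with *miR-497*, and 0.46 and -0.077 for the fold enrichment score with *miR-195* and *miR-497*. The counts without centring were 1 lower in total RNA with *miR-497* (all genes 5.53%), 0 lower in Ago2-IP with *miR-195* (6.25%), 4 higher and 0 lower in the *miR-195* score (41.8% and 6.42%) and 0 higher in the *miR-497* score (6.39%). Of the 60 gene values 18 changed sign without centring, and 9 of these had differed from 0 by more than counting error, namely, in Ago2-IP with *miR-195*, *CNOT1* (0.25), *CNOT6* (0.26), *CNOT6L* (0.016), *DCP1A* (0.22) and *DDX6* (0.16), in Ago2-IP with *miR-497*, *XRN1* (-0.034), in the *miR-195* score *DDX6* (0.29), and in the *miR-497* score *CNOT1* (-0.19) and *DDX6* (-0.076).

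With a pseudocount of 1, counts were 2 and 1 lower in total RNA with *miR-195* and *miR-497* (all genes 3.58% and 1.90%), without *CNOT6L*, 0 lower in Ago2-IP with *miR-195* (4.42%, member median -0.084) and 0 higher in the *miR-497* score (3.13%). Then 8 values changed sign, of which *DDX6* in the *miR-195* score (0.011) and *CNOT1* in the *miR-497* score (-0.022) had differed from 0 by more than counting error. With genes at 1 RPKM or more as the reference, the total RNA median with *miR-497* was -0.28, and 2 and 1 genes were lower (all genes 5.51% and 2.78%), again without *CNOT6L*. At 5/4-fold, with *miR-497*, 8 genes were lower in total RNA (all genes 22.3%) and 1 in Ago2-IP (21.2%), 2 were higher and 2 lower in the *miR-195* score (30.0% and 29.3%) and 4 higher in the *miR-497* score (26.9%). At 2-fold, 1 was lower in total RNA with each mimic (3.33% and 2.47%), and 0 were lower in Ago2-IP with *miR-195* (7.0%), 0 lower in the *miR-195* score (6.86%) and 0 higher in the *miR-497* score (5.10%). The 6-base site was found in 7 genes (all genes 46.0%). Counts stayed within 1.5 times the 3 reported for the 8-base site (2, all genes 5.14%) and the longest 3′UTR alone (3, 23.4%). The 6 bases followed by an A, chosen after seeing the data, were also found in 3 genes (all genes 10.8%). These were *CNOT6L*, *DCP1A* and *CNOT7*, and not *CNOT6*. Shares at similar 3′UTR length were not computed for the 8-base site or the 6 bases followed by an A. A pseudocount of 0.1 moved 1 of 60 gene values by more than its counting interval.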

Other observations

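The 6 RPKM values of each gene were put on the log2 scale relative to the gene's own mean. The search covered genes with at least 1 RPKM in all 6 libraries, members left out. Nearest to the mean pattern of the 10 members were *MAPK14*, *CCNJ*, *ANKRD28*, *PDS5A* and *SFMBT1*. Their root mean square differences were 0.053 to 0.062 over the 6 libraries. The members themselves lay at 0.18 for *CNOT1*, the nearest of them, to 0.56 for *CNOT8*, the farthest. Among the genes that are not members these would rank 456 and 4685. The mean pattern stood at 0.80 in non-transfected, 0.48 in *miR-195* and 0.45 in *miR-497* total RNA, and at -0.49, -0.40 and -0.85 in Ago2-IP. The named genes were picked for the smallest differences, so setting the members beside them cannot show whether the members form a tight group.

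The gene lengths implied by the deposited RPKM values were close to the canonical GENCODE transcripts for most members, for example 8794 against 8772 bases for *CNOT6L* and 6012 against 5930 bases for *DCP1A*. For *CNOT7* the length was 3560 against 6890 bases, for *CNOT2* 4116 against 2844 bases and for *DCP2* 8947 against 10110 bases. For *CNOT7* the implied length is shorter than the 5754 bases of its canonical 3′UTR, in which the 3 matches of 6 bases were counted. If this shortest fitting length is the one the authors used, the RPKM of *CNOT7* does not cover all of that 3′UTR. Where the lengths of *CNOT2* and *DCP2* differ was not tested.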
